A study of Mus musculus with 12 samples.

Results

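GABAergic interneurons are the inhibitory minority of neurons in the cerebral cortex, and they are born in the ventral forebrain and migrate into the cortex before birth. Chromatin accessibility around 9 genes of this lineage was described in cultured mouse cortical neurons from deposited ATAC-seq peak lists. The genes were Dlx1, Dlx2, Dlx5, Dlx6, Lhx6, Gad1, Gad2, Sp8 and Maf. The peaks of all 12 libraries were joined wherever 1 bp or more was shared, and every merged region inside one of these genes or within 50 kb of either end was taken. This gave 145 regions of 263785 in all, around 9 of the 55450 genes in the GENCODE vM21 annotation of the mouse genome GRCm38. Around these genes the regions were chosen by position.

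All libraries came from primary cortical neurons of C57BL/6 mice at embryonic day 18, cultures that are pools of cells and hold mostly excitatory projection neurons with a minority of interneurons and glia. There were 4 groups of 3 libraries each. The PBS group received the buffer, and the PFF group received preformed fibrils of human wild-type alpha-synuclein for 7 days, a model of the protein aggregation seen in Parkinson's disease. The PFF+MLi-2 group received fibrils for 7 days and, for the last 5 days, MLi-2, which blocks the kinase activity of LRRK2. The PFF+Rab5 ASO group received fibrils for 7 days and, for the last 3 days, antisense oligonucleotides against Rab5a and Rab5b, small GTPases of early endosomes, added with no transfection reagent. No library with a control oligonucleotide was analysed here, so an effect of Rab5 loss and an effect of oligonucleotides in general cannot be told apart. The labels place all libraries in batch 1. The study's methods treat each pregnancy as an independent replicate, with its cultures assigned at random to the groups, but neither they nor the labels say that a replicate number marks the same pregnancy in every group.

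In the developing forebrain the homeodomain factors encoded by Dlx1, Dlx2, Dlx5 and Dlx6 drive progenitors of the ganglionic eminences towards the GABAergic fate. The LIM homeodomain factor Lhx6 acts downstream of them in interneurons of the medial eminence, Maf (c-Maf) encodes a bZIP factor of the same lineage, and Sp8 encodes a zinc finger factor of interneurons from the caudal and lateral eminences. Gad1 and Gad2 encode the glutamate decarboxylases that make GABA, and they mark every GABAergic cell. The Dlx genes sit as pairs on shared chromatin, Dlx1 with Dlx2 and Dlx5 with Dlx6, with the 3′ ends of each pair facing each other across an intergenic stretch. Because the libraries are bulk, a smaller number of cells of a type and lower accessibility in each cell cannot be told apart.

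In GRCm38, Dlx1 lies at chr2:71528113-71533981 on the plus strand and Dlx2 at chr2:71543408-71546754 on the minus strand, while Dlx6 lies at chr6:6863334-6868568 on the plus strand and Dlx5 at chr6:6877805-6882085 on the minus strand. Gad2 (chr2:22622205-22693874, plus), Lhx6 (chr2:36081953-36105408, minus) and Gad1 (chr2:70553072-70602014, plus) are on chromosome 2 as well. Sp8 lies at chr12:118846329-118852576 (plus) and Maf at chr8:115682942-115707794 (minus).

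The height of a peak was taken as the authors' fold enrichment over local background and was expressed as a percentile among all peaks of its own library, since read counts were not used. Gained regions had a peak in each library of the treated group and in 0 of its comparator, and lost regions the reverse. For the 72465 regions with a peak in every library, heights were ranked within the library, turned into normal scores (the ranks placed on a standard normal scale) and compared with limma, with Benjamini-Hochberg adjustment over all 72465. Effects below are differences of mean normal scores, so a value of 1 is one standard deviation of the ranking. PFF was compared with PBS, and each of PFF+MLi-2 and PFF+Rab5 ASO with PFF. As a further comparison, PFF+Rab5 ASO was set against the other 9 libraries. Values of the groups are given in the order PBS, PFF, PFF+MLi-2, PFF+Rab5 ASO where no group is named. They share libraries and are therefore not independent of one another.

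The sequences of the regions on which the comparisons turn are given here from the RefSeq genome assembly GRCm38.p6, plus strand. TAATTA, the palindromic core bound by homeodomain factors, is in capitals, and the same 6 letters read on both strands. The first pair are the 2 member regions that passed the limma test for PFF+Rab5 ASO against the other 9 libraries, 1896 bp upstream of the nearest Gad2 start site and 33151 bp upstream of the nearest Dlx5 start site.

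Gad2 upstream, chr2:22620092-22620309: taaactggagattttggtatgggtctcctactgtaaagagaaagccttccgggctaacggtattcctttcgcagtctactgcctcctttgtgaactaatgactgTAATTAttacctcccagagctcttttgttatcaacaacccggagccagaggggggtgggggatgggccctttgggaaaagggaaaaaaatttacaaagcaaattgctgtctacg
Dlx5 far upstream, chr6:6915236-6915430: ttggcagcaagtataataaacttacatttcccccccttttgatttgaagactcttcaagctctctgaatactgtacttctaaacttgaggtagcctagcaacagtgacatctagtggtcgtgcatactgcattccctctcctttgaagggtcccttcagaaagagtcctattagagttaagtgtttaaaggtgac

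The next pair are the regions with a peak in every PFF+Rab5 ASO library and in no other library. One lies in an intron of Metap1d, 33995 bp upstream of the nearest Dlx1 start site. The other lies 285 bp from the Dlx5 start site and opens with a simple repeat of g and a.

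Dlx1 far upstream, chr2:71493973-71494118: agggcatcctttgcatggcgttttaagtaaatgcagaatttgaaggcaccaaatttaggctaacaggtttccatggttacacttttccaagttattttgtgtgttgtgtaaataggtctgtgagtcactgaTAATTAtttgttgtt
Dlx5 near promoter, chr6:6882370-6882478: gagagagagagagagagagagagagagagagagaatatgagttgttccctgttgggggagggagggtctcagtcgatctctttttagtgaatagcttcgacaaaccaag

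The last 3 are shown for contrast. The first is the region upstream of Dlx5 with the largest fall in the same comparison, which did not pass the test. The second is a window of 300 bases around the summit of the region between Dlx5 and Dlx6 that holds TAATTA at 2 positions, in an exon of the antisense transcript Dlx6os1. The third is the region downstream of Gad2 that was its tallest.

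Dlx5 upstream, chr6:6884924-6885214: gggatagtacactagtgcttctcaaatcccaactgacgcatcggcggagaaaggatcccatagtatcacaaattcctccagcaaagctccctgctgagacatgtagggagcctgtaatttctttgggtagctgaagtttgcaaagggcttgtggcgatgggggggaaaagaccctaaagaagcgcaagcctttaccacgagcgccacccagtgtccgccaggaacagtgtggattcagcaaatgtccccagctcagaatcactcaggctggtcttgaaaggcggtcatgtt
Dlx5/6 intergenic, chr6:6869521-6869820: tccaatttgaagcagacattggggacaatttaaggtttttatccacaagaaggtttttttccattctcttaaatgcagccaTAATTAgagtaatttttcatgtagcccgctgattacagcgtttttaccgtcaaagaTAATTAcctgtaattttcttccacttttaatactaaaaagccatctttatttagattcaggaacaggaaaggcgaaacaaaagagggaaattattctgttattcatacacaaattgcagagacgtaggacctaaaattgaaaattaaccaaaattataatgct
Gad2 downstream, chr2:22721889-22722175: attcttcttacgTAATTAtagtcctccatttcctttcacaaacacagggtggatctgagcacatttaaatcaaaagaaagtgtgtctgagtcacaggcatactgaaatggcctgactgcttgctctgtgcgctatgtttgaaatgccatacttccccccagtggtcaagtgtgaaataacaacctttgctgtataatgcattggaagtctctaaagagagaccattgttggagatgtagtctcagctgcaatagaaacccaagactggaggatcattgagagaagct

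The letters TAATTA occurred within 300 bases centred on the summit in 27 of the 145 member regions (18.6%), against 11.2% of the 263562 regions with a full window. Among regions with a peak in every library the shares were 10 of 42 (23.8%) for the members and 9.27% for all. GGGCGG, the core box of SP factors such as Sp8, searched on both strands, occurred in 33 member windows (22.8%) against 11.6% of all, and in 28.6% against 22.2% of those with a peak in every library. The MAF core TGCTGAC, on both strands, occurred in 3.45% of member windows against 5.53% of all. The E-boxes CACGTG and CAGCTG, each its own reverse complement, occurred in 4.14% and 24.1% of member windows against 4.81% and 21.7% of all. The median GC content of the windows was 49.0% for members and 47.3% for all. A match to these letters describes the sequence and does not show that a factor binds there.

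The interneuron genes were marked by accessible chromatin in every group. A peak in all 12 libraries was found at 42 of the 145 member regions (29.0%), against 72465 of 263785 regions (27.5%). A peak in 1 library only was found at 33 member regions (22.8%), against 26.6% of all. Member regions within 1 kb of a start site of one of the 9 genes numbered 37, of which 12 had a peak in every library. The rest were 50 upstream regions (16 in every library), 37 downstream regions (10), 14 intronic regions (3) and 7 exonic regions (1). The windows of the paired Dlx genes overlap, and 57 regions belonged to more than 1 window. The 42 shared member regions had a median height at percentile 67.1, below the median of 73.8 for all shared regions. No test was made of these shares and medians.

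The most regions with a peak in every library were found at Dlx1 and Dlx2, with 12 of 29 regions in each window. Dlx5 had 8 of 32 and Dlx6 7 of 30. Gad1 had 7 of 22, Gad2 5 of 14, Sp8 3 of 11, Lhx6 3 of 20 and Maf 3 of 15. At Lhx6, the tallest region, at a mean percentile of 98.2, was the promoter of the neighbouring genes Morn5 and Ndufa8, and 3 of its 20 regions were promoters of coding genes outside the list. The tallest region of the Gad1 window was likewise the promoter of Erich2, at percentiles 96.3 to 99.0.

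At 8 of the 9 genes a region within 1 kb of a start site had a peak in every library, and the exception was Lhx6. The Lhx6 promoter region, 177 bp long and 108 bp from a start site, had a peak in 9 of 12 libraries. Its percentiles were 33.6, 35.2 and 14.2 in PBS and 21.6, 29.6 and 26.2 in PFF. Its only PFF+MLi-2 peak was at 24.3 in replicate 3, and the PFF+Rab5 ASO peaks were at 26.0 and 58.4 in replicates 1 and 2. The Lhx6 promoter was thus low in every library that called it but 1, and it was missing from libraries of both inhibitor-treated and ASO-treated groups.

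The Dlx5 promoter, which was the tallest region of both the Dlx5 and the Dlx6 windows, held the highest promoter percentiles of the 9 genes. Its means were 86.5 ± 1.22, 84.3 ± 5.25, 84.7 ± 5.01 and 84.1 ± 4.96 (SD, n = 3 each) for PBS, PFF, PFF+MLi-2 and PFF+Rab5 ASO. The Sp8 promoter stood at 72.1 ± 2.36, 71.8 ± 2.55, 68.3 ± 7.83 and 70.7 ± 3.68 in the same order. In both promoters the group means lay within the spread of replicates.

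The Dlx1 promoter, 17 bp from a start site, stood at 73.7, 72.2 and 69.3 in PBS, 75.7, 63.4 and 65.0 in PFF and 72.0, 71.7 and 72.7 with PFF+MLi-2. In PFF+Rab5 ASO it stood at 59.0, 68.7 and 60.9, with replicates 1 and 3 below every other library and replicate 2 among them. The effect against the other 9 libraries was -0.36 (SE 0.160, adjusted p = 0.190 by limma). The Dlx2 promoter had group means of 67.7 ± 5.71, 62.3 ± 8.19, 63.7 ± 4.05 and 65.7 ± 1.82. The Dlx6 promoter had means of 64.1 ± 4.09, 61.3 ± 7.16, 68.4 ± 8.99 and 69.7 ± 3.14 in that order. The groups overlapped at both.

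The Maf promoter, the tallest region of its window, stood at 66.2 ± 10.7 in PBS, 76.2 ± 1.11 in PFF, 65.6 ± 9.91 with PFF+MLi-2 and 65.2 ± 6.40 with PFF+Rab5 ASO. PFF+Rab5 ASO differed from PFF by -0.46, with an adjusted p of 0.231 by limma. On the log2 fold without ranks the same promoter was called lower in PFF+Rab5 ASO than in PFF (effect -0.36, adjusted p = 0.0484 by limma), on a scale where the median of all regions also shifted by -0.13.

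The tallest regions of the other genes were distal and near the top of every list. The region 34291 bp upstream of Dlx2, tallest of both Dlx1 and Dlx2, ranged from percentile 95.6 to 99.5. The Sp8 region 7372 bp from a start site ranged from 98.3 to 99.9, and the region downstream of Gad2 shown above ranged from 93.5 to 99.3. At these regions every library of every group lay within 6 percentile points of the others.

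**Figure D1:**
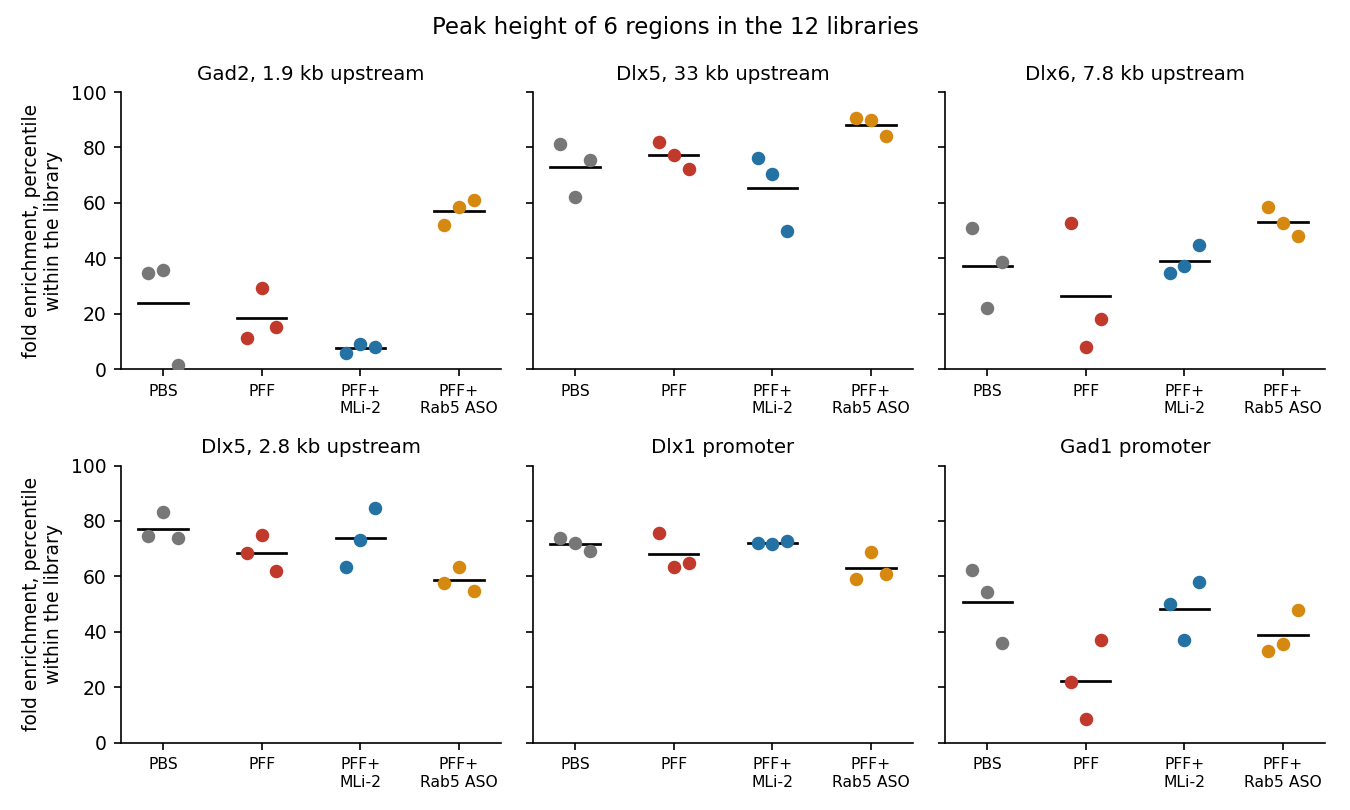
Percentile of fold enrichment within the library (vertical axis, percent) at 6 member regions, 1 panel each, with 1 point for each of the 12 libraries and a bar for the group mean. The Gad2 region 1896 bp upstream is at percentiles 52.1 to 61.0 in the 3 PFF+Rab5 ASO libraries and at 1.59 to 35.7 in the other 9.

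Local background differed between the members in a way that the fold alone did not show, as was seen after the values had been examined. MACS2 divides the summit pileup by a local background, and this background was recovered for each peak and divided by the most frequent background of its library. The ratio had a median of 1.37 over all shared regions and 2.08 over the 21036 of them within 1 kb of a start site. It was 1.77 over the 42 member regions and 3.08 over the 12 member promoters. Of the 21 Dlx regions, 10 lay in the top 10% of all regions (47.6%), and these 10 held all 6 Dlx promoters, whose median ratio was 3.24. The other 3 member regions in that top 10% were at Gad1, where the ratios of the promoters reached 4.22 and 4.37.

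The raised background extended beyond the promoters. Between Dlx1 and Dlx2 the ratio was 3.32 and 3.78 at the 2 regions with a peak in every library, and between Dlx5 and Dlx6 it was 3.43 and 3.60 at the 2 such regions. The far upstream regions of Dlx5 stood at 1.00, the tallest Dlx2 region at 1.05 and the tallest Gad2 region at 1.02, so they rose from an ordinary background. At the 13 member regions in the top 10% of background the percentile by fold lay below that by summit pileup. The fold was ranked among all peaks of a library and the pileup among the shared regions only, so the scales differ. Because the fold divides by background, a lower rank by fold follows in part from choosing regions of high background. The region at 615 bp from a Gad1 start site was at percentile 80.2 by summit pileup and at 40.1 by fold, and the region between Dlx1 and Dlx2 with the ratio of 3.78 was at 62.3 by pileup and at 15.8 by fold.

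In the 13 member regions of the top 10%, the background ratio was followed by library. The median over the 13 member regions was 3.44, 3.37 and 3.34 in PBS, 3.73, 4.33 and 4.03 in PFF, 2.81, 3.11 and 3.00 with PFF+MLi-2 and 3.31, 3.40 and 3.21 with PFF+Rab5 ASO. It was highest in the 3 PFF libraries and lowest in the 3 PFF+MLi-2 libraries. Over all 7247 regions of the top 10% the means were 3.56 ± 0.161, 4.11 ± 0.192, 3.40 ± 0.0321 and 3.32 ± 0.147 in the same order. The members divided by all came to 0.952 ± 0.0316 in PBS, 0.979 ± 0.0275 in PFF, 0.875 ± 0.0347 with PFF+MLi-2 and 0.999 ± 0.0182 with PFF+Rab5 ASO. In that ratio the PFF+MLi-2 libraries, at 0.838, 0.907 and 0.879, lay below the other 9, which ran from 0.919 to 1.02. No test was made of this difference, which was noticed in the data.

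More member regions were called in the PFF+Rab5 ASO libraries than in most others. Of the 145 regions, 78, 65 and 66 had a peak in the PBS libraries, 73, 82 and 72 in PFF, 61, 74 and 63 with PFF+MLi-2 and 96, 87 and 74 with PFF+Rab5 ASO. Replicates 1 and 2 of PFF+Rab5 ASO had the highest counts, and replicate 3 lay below replicate 2 of PFF and replicate 1 of PBS, so the groups overlapped. As percentages the means were 48.0 ± 5.01, 52.2 ± 3.82, 45.5 ± 4.81 and 59.1 ± 7.64 in that order. Over all 263785 regions they were 50.2 ± 8.07, 53.1 ± 3.67, 46.5 ± 0.400 and 54.1 ± 4.38.

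The PFF+Rab5 ASO lists were also the deepest on average, with a relative depth of 1.22 ± 0.149 against 0.939 ± 0.0333 in PBS, 0.843 ± 0.0728 in PFF and 0.999 ± 0.0373 with PFF+MLi-2. Depth was read from the background of each list on a scale with mean 1 over the libraries. With every list reduced to the 137417 peaks with the highest -log10 p-value, the size of the shortest list, the member counts were 59, 65 and 61 in PBS, 63, 71 and 68 in PFF, 60, 70 and 60 with PFF+MLi-2 and 72, 69 and 65 with PFF+Rab5 ASO. Only replicate 1 of PFF+Rab5 ASO then lay above every other library. The share of all regions was then 43.4% to 46.6% in every library, and the share of members 49.7%, 47.6% and 44.8% with PFF+Rab5 ASO and 40.7% to 49.0% elsewhere. Per 1000 regions called, the member regions numbered 0.620, 0.617 and 0.561 with PFF+Rab5 ASO and 0.494 to 0.599 in the other 9 libraries.

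**Figure D2:**
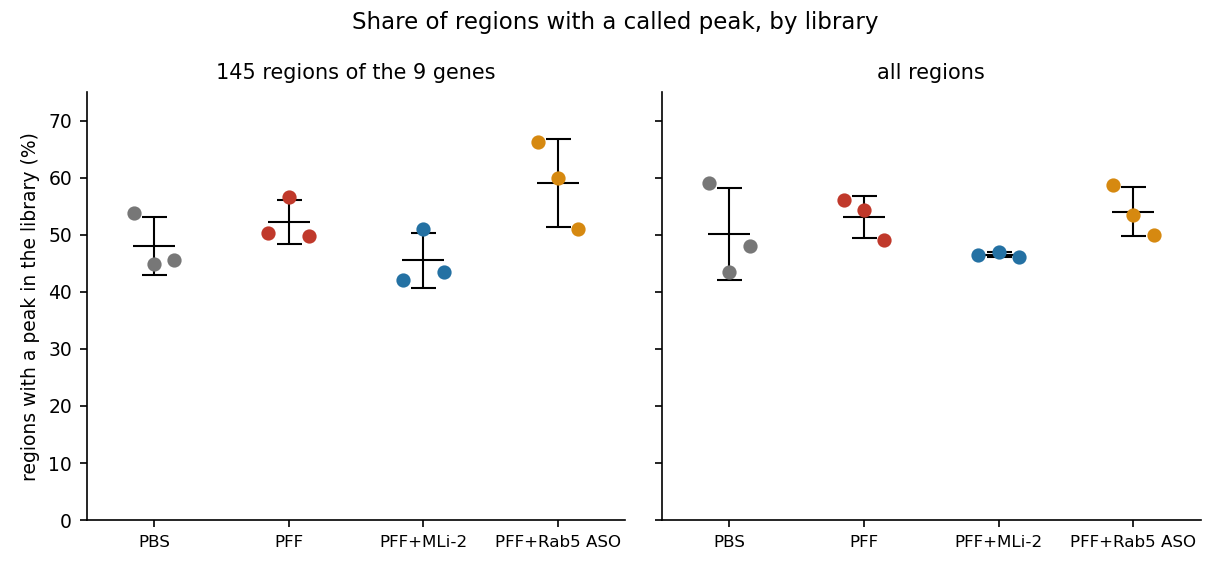
Percentage of the 145 member regions (left) and of all regions (right) with a peak in each library (vertical axis, percent), with 1 point per library and the group mean and SD. The PFF+Rab5 ASO libraries stand at 66.2, 60.0 and 51.0 for the members and at no more than 58.7 for all regions.

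Counts per gene were taken from the full lists, which differ in depth, and over all regions PFF+Rab5 ASO called 54.1% and PFF 53.1%. At Dlx5 the PFF+Rab5 ASO lists held 20, 21 and 18 regions. PBS held 18, 12 and 13 there, PFF 16, 18 and 16 and PFF+MLi-2 15, 14 and 11. The lowest PFF+Rab5 ASO library tied with the highest PBS and PFF libraries. Dlx6, which shares 30 regions with a neighbouring window, showed 19, 19 and 17 with PFF+Rab5 ASO and at most 17 elsewhere. Dlx1 had 21, 18 and 16 with PFF+Rab5 ASO against 13 or 14 in PBS, 14, 18 and 13 in PFF and 15, 17 and 14 with PFF+MLi-2.

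At Gad2, the counts were 9, 8 and 9 in PBS, 7, 7 and 9 in PFF, 5, 8 and 6 with PFF+MLi-2 and 10, 10 and 9 with PFF+Rab5 ASO, which was again level with the highest libraries of PBS and PFF. At Gad1, PBS had 11, 11 and 10, PFF 12, 15 and 12, PFF+MLi-2 11, 11 and 12 and PFF+Rab5 ASO 14, 13 and 9, so replicate 2 of PFF was highest there. Lhx6 had 6 to 12 regions in the other groups and 13, 11 and 9 with PFF+Rab5 ASO. Sp8 had means of 6.33, 5.33, 4.67 and 6.67, and Maf of 5.33, 6.33, 5.67 and 7.33 in the same order. At all 9 genes the PFF+Rab5 ASO counts overlapped or tied with those of another group.

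The intergenic stretch of each Dlx pair was counted after the values had been seen. Between Dlx5 and Dlx6, a stretch of 9.24 kb with 7 regions, 4, 4 and 4 regions were called in PBS, 4, 4 and 4 in PFF, 4, 4 and 3 with PFF+MLi-2 and 5, 6 and 5 with PFF+Rab5 ASO. The PFF+Rab5 ASO libraries thus had 5 or 6 regions and the others 3 or 4. With equal numbers of top peaks the counts were 2, 4 and 4 in PBS, 4, 3 and 4 in PFF, 4, 4 and 2 with PFF+MLi-2 and 4, 5 and 5 with PFF+Rab5 ASO, and the groups overlapped. Between Dlx1 and Dlx2, 9.43 kb with 10 regions, the PFF+Rab5 ASO libraries had 5, 3 and 2 and overlapped with PFF at 2, 5 and 2.

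**Figure D3:**
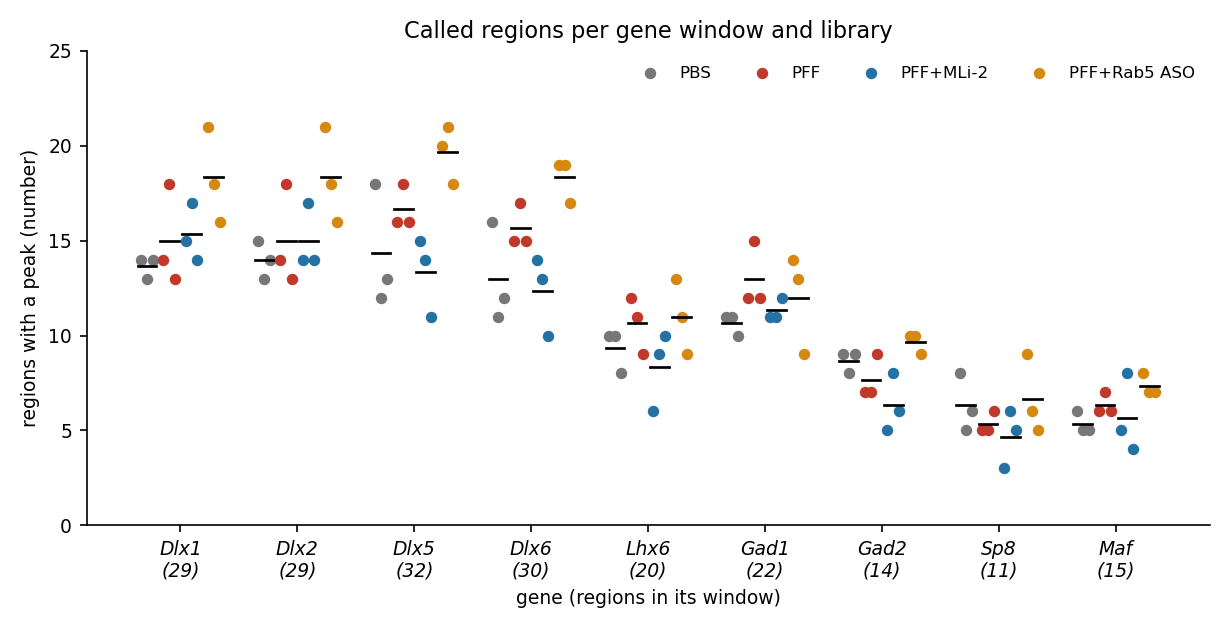
Number of regions with a peak (vertical axis, regions) in the window of each of the 9 genes, with 1 point per library coloured by group and a bar for the group mean. The PFF+Rab5 ASO points are highest or tied at Dlx5 (18 to 21 regions) and Gad2 (9 or 10 regions) and overlap those of other groups at Gad1, Lhx6 and Sp8.

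PFF+Rab5 ASO against PFF gained 3 member regions and lost 0 of the 129 with a peak in either group (2.33% gained), where all regions gained 2.64% and lost 1.94%. The share gained was near that of all regions. With equal numbers of top peaks 1 member region was gained, upstream of Dlx1, and 2 were lost (0.971% and 1.94%), where 4779 of all regions were gained and 4646 lost. The gained regions were those upstream of Dlx1 and near the Dlx5 promoter shown above and one 1789 bp upstream of Maf. Against all other 9 libraries 2 member regions of 145 were gained (1.38%) and 0 lost, where all regions gained 1.14% and lost 0.183%.

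The Dlx1 region, gained in both comparisons, was at percentiles 58.8, 43.8 and 35.8 in the PFF+Rab5 ASO libraries with summit pileups of 19, 16 and 15 fragments. The Dlx5 near-promoter region was far lower, at percentiles 5.99, 2.13 and 0.963, although its pileups were 24, 21 and 19 fragments. The Maf region stood at 12.2, 10.0 and 2.72 with PFF+Rab5 ASO and at 7.84 in replicate 1 of PFF+MLi-2, and it had no peak elsewhere. The median summit pileup of a library was 17 or 18 fragments.

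For height, PFF+Rab5 ASO against PFF called 1 of the 42 member regions, higher, where 1.97% of all regions were called higher and 1.86% lower (3.83% in either direction). Without adjustment 7 member regions had p under 0.05, where 21.1% of all regions did. Against the other 9 libraries 2 member regions were called, both higher, and 0 lower, where 3.81% of all regions were called higher and 3.99% lower (7.80% in either direction). Without adjustment 8 member regions had p under 0.05, 6 higher and 2 lower, where 24.0% of all regions did. The median effect over the members was 0.11 against -0.01 over all regions, and 23 of 42 were positive (54.8% against 49.2%).

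The region called in both comparisons lies upstream of Gad2, 218 bp long, and holds 1 TAATTA. Its percentiles were 34.8, 35.7 and 1.59 in PBS, 11.1, 29.4 and 15.1 in PFF, 5.79, 9.26 and 7.97 with PFF+MLi-2 and 52.1, 58.4 and 61.0 with PFF+Rab5 ASO. Every PFF+Rab5 ASO library lay above every other library, and PFF+MLi-2 was uniformly low. The authors' fold was 5.02, 5.50 and 5.49 with PFF+Rab5 ASO and 3.13 to 4.63 in the others.

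The effect at this Gad2 region was 1.21 (SE 0.258, adjusted p = 0.0147 by limma) against the other 9 libraries and 1.13 (SE 0.231, adjusted p = 0.0345) against PFF. The first call was lost without replicate 2 or 3 of PFF+Rab5 ASO (effects 1.19 and 1.10, adjusted p = 0.0580 and 0.0787). The second was lost in 5 of 6 fits that left out 1 library, with effects of 0.98 to 1.28 over the 6. With relative depth in the model the effect was 1.65 (SE 0.529) with an adjusted p of 0.308, and 0 of all regions were then called. The summit pileup was 28, 30 and 30 fragments in PFF+Rab5 ASO and 14 to 23 in the others. Divided by relative depth it became 21.4, 28.6 and 23.1, with a mean of 24.3 ± 3.76 against 19.6 ± 4.58 in PBS, 23.1 ± 4.52 in PFF and 15.3 ± 0.523 with PFF+MLi-2. On that scale, chosen after the values were seen, PFF+Rab5 ASO overlapped PBS and PFF and lay above PFF+MLi-2. The division lowers every region of the deeper libraries alike. It left PFF+Rab5 ASO with the lowest group mean at 29 of the 42 member regions and with the highest at 1, the Gad2 region, and before it PFF+Rab5 ASO was lowest at 4 and highest at 21. After the division PFF had the highest mean at 37 of the 42 and the lowest at 0, and before it at 11 and 7.

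**Figure D4:**
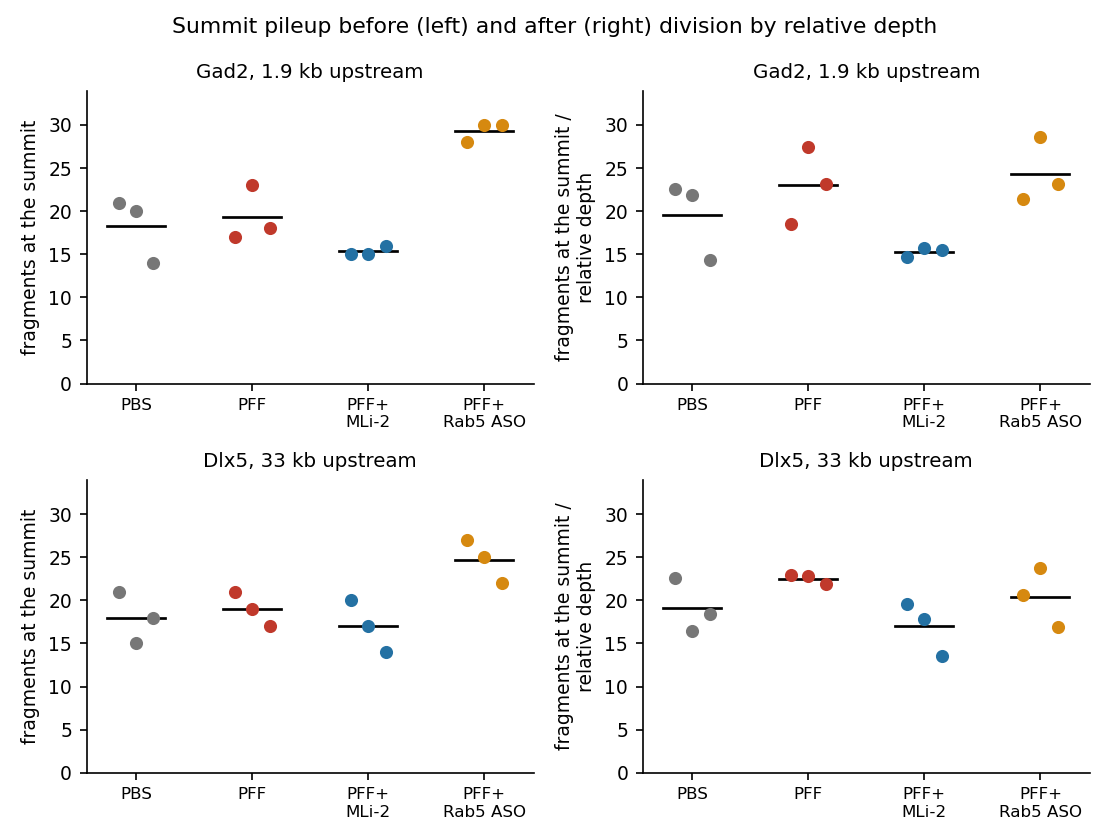
Fragments at the summit (vertical axis) as recovered from the lists (left) and after division by relative depth (right), at the Gad2 region 1896 bp upstream and the Dlx5 region 33151 bp upstream, with 1 point per library and a bar for the group mean. At the Gad2 region the PFF+Rab5 ASO libraries are at 28, 30 and 30 fragments before the division and at 21.4, 28.6 and 23.1 after it.

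The Gad2 promoter itself, 589 bp long, stood at 44.6, 45.6 and 65.9 in PBS, 52.2, 60.7 and 49.0 in PFF, 44.3, 45.3 and 53.1 with PFF+MLi-2 and 66.8, 57.4 and 67.2 with PFF+Rab5 ASO. The PFF+Rab5 ASO mean of 63.8 ± 5.57 was the highest of the groups, with replicate 2 below one PBS and one PFF library. The effect was 0.36 with an adjusted p of 0.287 by limma against the other 9 libraries, and it did not pass the test.

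The second called region lies far upstream of Dlx5, is 195 bp long and holds no TAATTA. Its percentiles were 81.3, 62.0 and 75.4 in PBS, 82.1, 77.4 and 72.2 in PFF, 76.3, 70.3 and 49.8 with PFF+MLi-2 and 90.7, 89.8 and 84.1 with PFF+Rab5 ASO. Every PFF+Rab5 ASO library lay above the other 9, whose groups overlapped one another. The effect was 0.74 (SE 0.202, adjusted p = 0.0406 by limma) against the other 9 libraries and 0.58 (SE 0.203, adjusted p = 0.136) against PFF. With relative depth in the model it was 0.76 with an adjusted p of 0.599. The call was lost in 7 of 12 fits that left out 1 library, where the adjusted p ran from 0.0268 to 0.142 and the effect from 0.65 to 0.85 over all 12. It was also lost on the log2 fold without ranks (0.31, adjusted p = 0.110 by limma). Divided by depth the pileup had means of 19.2 ± 3.13 in PBS, 22.5 ± 0.503 in PFF, 17.0 ± 3.08 with PFF+MLi-2 and 20.4 ± 3.45 with PFF+Rab5 ASO.

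The regions nearer to Dlx5 and Dlx6 had effects of both signs that did not pass the test. The region 2839 bp upstream of Dlx5 had percentiles of 74.6, 83.2 and 73.8 in PBS, 68.4, 75.1 and 61.9 in PFF, 63.4, 73.2 and 84.5 with PFF+MLi-2 and 57.6, 63.4 and 54.7 with PFF+Rab5 ASO. Replicates 1 and 3 of PFF+Rab5 ASO held the lowest values, with replicate 2 level with replicate 1 of PFF+MLi-2 and above replicate 3 of PFF. In normal score the groups did not overlap, with -0.87, -0.56 and -0.75 for PFF+Rab5 ASO and a lowest value of -0.52 elsewhere. The effect was -0.64 (SE 0.210, adjusted p = 0.0800 by limma), or -0.41 (SE 0.441) with relative depth in the model, and the region was called lower on the log2 fold without ranks (-0.37, adjusted p = 0.0344), where the median of all regions shifted by -0.07.

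The region 7848 bp upstream of Dlx6, in an intron of Dlx6os1, was singled out after its values were seen. It also overlaps an exon of Gm44094 and lies within 1 kb of a start site of that gene. It stood at 51.0, 22.1 and 38.6 in PBS, 52.7, 8.05 and 18.1 in PFF, 34.9, 37.3 and 44.7 with PFF+MLi-2 and 58.4, 52.7 and 48.2 with PFF+Rab5 ASO. The groups overlapped in percentile though not in normal score, and the effect was 0.52 (SE 0.217, adjusted p = 0.158 by limma), or 0.12 (SE 0.442) with relative depth in the model. In normal score 3 of the 42 member regions lay wholly above the other 9 libraries, where 4.16% of all regions did, and 1 lay wholly below, where 3.47% of all did.

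The remaining extremes of this comparison did not pass the test either. The region 49538 bp upstream of Dlx5 had an effect of 0.60 (SE 0.299, adjusted p = 0.240 by limma), or 1.41 (SE 0.580, adjusted p = 0.433) with relative depth in the model, with percentiles of 65.6, 79.8 and 68.2 with PFF+Rab5 ASO and 17.9 to 78.8 elsewhere. The Dlx5/6 intergenic region with TAATTA at 2 positions had an effect of -0.47 (SE 0.223, adjusted p = 0.221), at 3.78, 4.66 and 1.90 with PFF+Rab5 ASO and 2.21 to 26.2 elsewhere. Both overlapped with other groups.

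**Figure D5:**
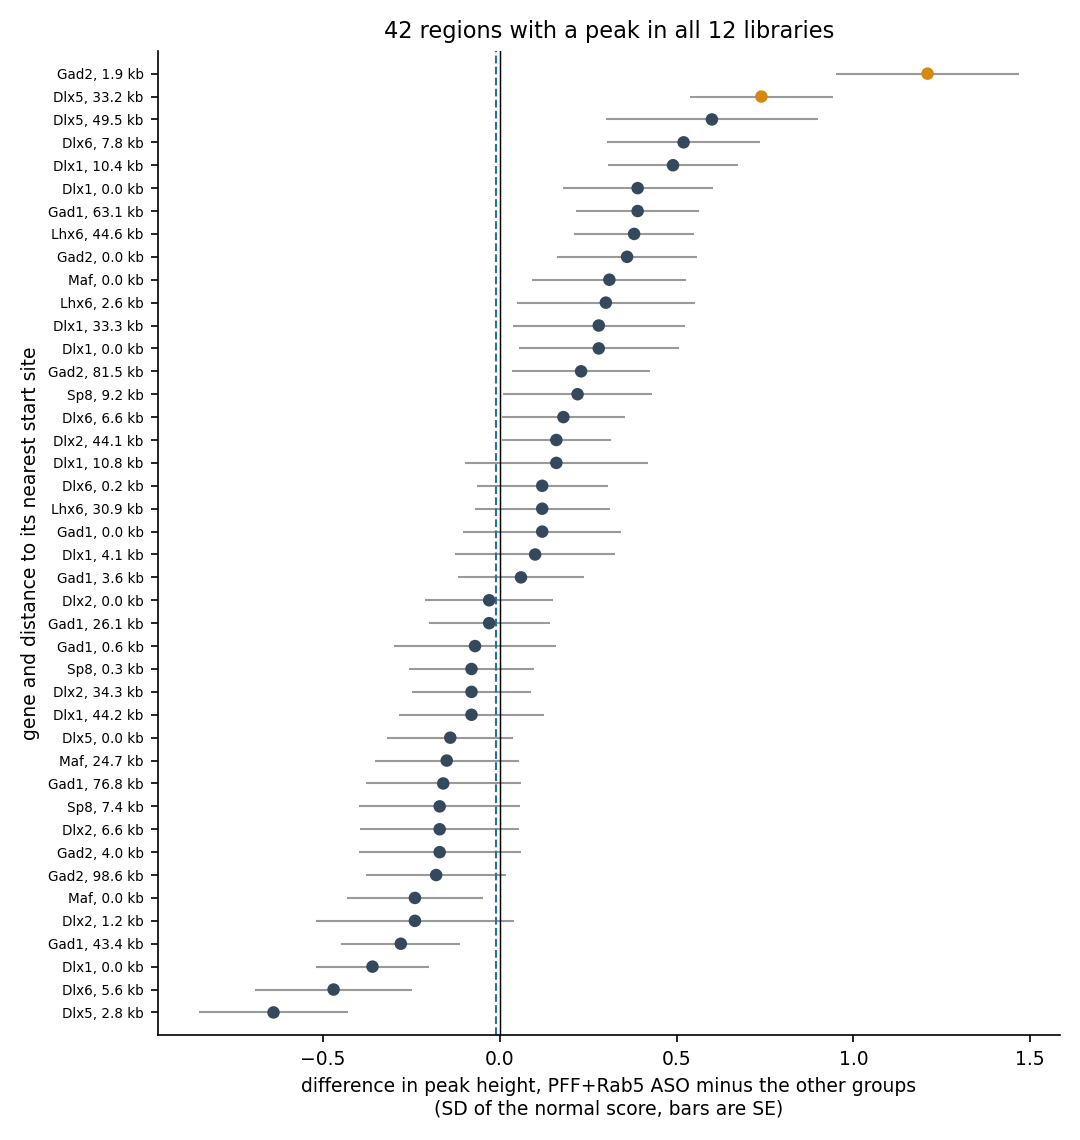
Effect of PFF+Rab5 ASO against the other 9 libraries (horizontal axis, difference of mean normal scores, bars are the standard error) for the 42 member regions with a peak in every library, in order of effect, with the median of all regions as a dashed line. The regions upstream of Gad2 (1.21) and far upstream of Dlx5 (0.74), in orange, are the 2 that passed an adjusted p of 0.05, and 23 of 42 effects are above 0.

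The effect of PFF+Rab5 ASO was split by the presence of TAATTA. Over all shared regions the median effect was 0.13 with the letters (6712 regions, 61.6% positive) and -0.02 without (65696 regions, 48.0% positive). Over the members it was 0.00 with them (10 regions, 5 positive) and 0.11 without (32 regions, 18 positive). As a description, the correlation of the effect with GC content was -0.11 over 72408 regions and -0.16 over the 42 members, and with the log10 of region length it was -0.02 and -0.16. Neighbouring regions share libraries and sequence composition, so these values carry no test.

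PFF against PBS left the interneuron genes with few differences in calls. Of the 112 member regions with a peak in either group 1 was gained and 1 lost (0.893% each), where all regions gained 1.10% and lost 0.405%. The gained region lies in a Gad1 intron and stood at percentiles 35.1, 52.9 and 20.1 in PFF. It also had peaks in replicate 1 of PFF+MLi-2 (18.0) and replicates 1 and 2 of PFF+Rab5 ASO (7.81 and 12.4). The lost region lies in an exon of Sp8 and stood at 5.93, 13.8 and 12.8 in PBS, with peaks in 2 libraries of PFF+MLi-2 (33.4 and 16.4) and 2 of PFF+Rab5 ASO (11.5 and 33.9).

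For height in PFF against PBS, limma called 0 member regions, 0% of all regions being called and 9.72% having an unadjusted p under 0.05. The members under that p numbered 3, all lower in PFF, with effects of -0.94 in the Dlx2 upstream region at chr2:71547972-71548128 (adjusted p = 0.352), -0.90 at the Gad1 region 615 bp from a start site (adjusted p = 0.359) and -1.10 upstream of Maf at chr8:115732509-115732729 (adjusted p = 0.270). The direction depended on the fit. On the log2 fold without ranks 3 members were higher and 3 lower under that p, and with the replicate number as a block 2 were higher and 3 lower. The Gad1 region stood at 62.2, 54.5 and 36.0 in PBS, 22.0, 8.42 and 36.9 in PFF, 49.9, 37.0 and 57.9 with PFF+MLi-2 and 33.2, 35.6 and 47.9 with PFF+Rab5 ASO. Replicates 1 and 2 of PFF were the lowest libraries, and replicate 3 overlapped with the other groups. This region was the tallest within 1 kb of a Gad1 start site. Its summit pileup was 48, 42 and 37 fragments in PBS and 36, 36 and 39 in PFF, and these overlapped.

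PFF+MLi-2 against PFF gained 0 and lost 0 of 114 member regions, where all regions gained 0.374% and lost 1.64%. For height limma called 0 member regions and 0% of all, with 11.4% of all under an unadjusted p of 0.05. The members under that p numbered 5. At Gad1 the region 615 bp from a start site had an effect of 0.91 (SE 0.283, adjusted p = 0.311), opposite in sign to its effect in PFF against PBS, a comparison that shares the PFF libraries. Its pileup divided by relative depth was not higher with PFF+MLi-2, with means of 38.5 ± 2.81 against 44.2 ± 5.65 in PFF. The local background there was 6.46, 6.71 and 6.96 with PFF+MLi-2. Whether background had a part in these effects was not tested. A second Gad1 region, in an intron at chr2:70558230-70558406, had an effect of 0.82 (adjusted p = 0.225).

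Lower in PFF+MLi-2 than in PFF, short of the threshold, were 3 regions. The region in an Lhx6 exon at chr2:36091374-36091658 stood at 74.9, 72.5 and 74.0 in PFF and at 32.6, 43.4 and 51.7 with PFF+MLi-2. PBS libraries there stood at 34.6, 60.7 and 65.9 and PFF+Rab5 ASO at 58.8, 74.6 and 69.9. The PFF and PFF+MLi-2 libraries did not overlap, and the effect was -0.96 with an adjusted p of 0.215 by limma. The region in a Dlx1 exon at chr2:71528853-71529184 stood at 43.6, 46.4 and 53.9 in PFF and at 15.3, 22.7 and 16.8 with PFF+MLi-2 (effect -0.64, adjusted p = 0.329). The tallest region upstream of Dlx2 had an effect of -0.51 (adjusted p = 0.431).

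The wider interneuron programme was a list of 29 other genes, among them the vesicular GABA transporter Slc32a1 and the factors Sox6, Satb1 and Nr2f1. Without the member regions it held 742 regions, of which 187 had a peak in every library, and at 22 of the 29 genes the tallest promoter region was one of these 187. In PFF+Rab5 ASO against the other 9 libraries 6 of the 187 were called higher and 10 lower by limma (3.21% and 5.35%), with a median effect of -0.01, and 3 regions were gained and 2 lost. The list was called in 48.8% ± 7.29 of its regions in PBS, 52.3% ± 3.10 in PFF, 45.2% ± 1.80 with PFF+MLi-2 and 54.5% ± 4.56 with PFF+Rab5 ASO, close to the shares of all regions.

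Among the regions called higher was one 3766 bp from a Slc32a1 start site (1.06, adjusted p = 0.00750 by limma), at 66.7, 71.0 and 73.4 with PFF+Rab5 ASO and 9.74 to 51.1 elsewhere. Among those called lower was one 15934 bp from Sox6 (-1.33, adjusted p = 0.00666), at 17.9, 39.3 and 19.2 with a highest value of 82.1 elsewhere. One 13535 bp from Cxcr4, the receptor that guides migrating interneurons, fell by 1.02 (adjusted p = 0.00823), at 29.1, 48.3 and 31.0 against 49.3 to 77.0. These 3 examples did not overlap with the other libraries.

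Markers of other cells were open to differing extents. The list of projection neuron genes, 14 genes with 167 regions in every library, had 7 regions called higher and 9 lower in the same comparison, with 7 gained and 1 lost. Among the 13 projection neuron genes whose tallest promoter region had a peak in every library, the effects ran from -0.63 to 0.60, and that of Neurod2 (-0.63, adjusted p = 0.0302 by limma) passed the test. Shares of all regions in that comparison were 3.81% called higher, 3.99% called lower, 1.14% gained and 0.183% lost. Astrocyte genes had 3 higher and 5 lower of 59, oligodendrocyte lineage genes 2 and 2 of 67, microglial genes 1 and 1 of 41 and vascular and mesenchymal genes 2 and 3 of 39. No promoter region had a peak in any library at 3 of the 6 microglial genes and at 1 of the 6 vascular genes (Pecam1), and no microglial promoter had a peak in every library. Astrocyte regions were called in 65.1% ± 6.51 of cases in PBS, 70.5% ± 1.99 in PFF, 65.6% ± 0 with PFF+MLi-2 and 60.8% ± 5.81 with PFF+Rab5 ASO, the lowest mean of the 4 groups. For projection neuron regions the means were 50.7%, 56.4%, 48.2% and 54.4% in the order PBS, PFF, PFF+MLi-2 and PFF+Rab5 ASO. Oligodendrocyte regions had 59.0%, 65.0%, 56.2% and 58.6%, microglial regions 53.1%, 62.5%, 49.9% and 52.3% and vascular regions 50.9%, 60.7%, 48.1% and 57.0% in that order. In these 5 lists PFF had the highest mean. For the member regions PFF+Rab5 ASO had it. The same held for the wider interneuron programme (54.5% against 52.3% in PFF) and for all regions (54.1% against 53.1%). Whether a change in the mix of cells had a part in the member values was not tested.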

How the data were processed

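The data were 12 ATAC-seq peak lists. The authors, per the methods, used Trim Galore 0.6.7 for trimming, Bowtie2 2.5.1 for alignment to GRCm38 and MACS2 2.2.7.1 for peaks, with 1 list per library and no pooling. FastQC was used for quality checks. The MACS2 options, duplicate handling and any Tn5 shift are not given in the sources used here, and each can change peak number and width. The deposited lists give a score, a fold enrichment over local background (a ratio), the -log10 p-value, the -log10 q-value and the summit offset of each peak. Groups came from titles and treatment labels, which name PFF for all treated libraries, whereas the free-text descriptions of those with MLi-2 or ASO mention PBS. Library totals of reads were not used. Lists held 137417 to 184717 peaks.

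Peaks were merged into regions, and within-list percentiles of the fold were compared. The limma test of normal scores used version 3.58.1 under R 4.3.3. Python 3.11.15, numpy 2.4.6, pandas 2.3.3, scipy 1.17.1 and matplotlib 3.10.9 were used for the rest. Summit pileup and local background were recovered from the fold and the -log10 p-value, as the whole-number pileup that gave back the -log10 p-value within 0.001 for 100% of a random sample of peaks from each list, and relative depth is the most frequent background divided by the smallest peak width (read as fragment length, an assumption), scaled to a mean of 1. Counts of calls cover no error beyond the libraries' own spread. On simulated data with 200 shifted regions, a shift of 2 in normal score was recovered for 79%, 73%, 76.5% and 95% in the comparisons of PFF with PBS, MLi-2 with PFF, Rab5 ASO with PFF and Rab5 ASO with the other 9, and a shift of 1 for 0%, 0%, 0% and 31%.

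The member genes and gene lists were chosen with earlier results of these data known. Regions named were, for each gene, the tallest within 1 kb of a start site and the tallest of all, every member region past an adjusted p of 0.05, every gained or lost one, and the 3 largest rises and falls in PFF+Rab5 ASO against the other 9 libraries. Others named were chosen after their values were seen. Alternatives were an equal number of peaks, a stricter -log10 q of at least 3, peaks covering at least 50% of a region, ranks of the -log10 p-value, the log2 fold without ranks, all libraries in 1 fit, a depth covariate, a replicate block and leaving out each library.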

Additional observations from a re-analysis of the deposited data

How the results depend on the processing

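Gained and lost member regions rest on few calls. With equal numbers of top peaks by -log10 p-value, PFF vs PBS gained 2 and lost 0, PFF+Rab5 ASO vs PFF gained 1 and lost 2, and PFF+Rab5 ASO vs the other 9 gained 1. With peaks covering at least 50% of a region, PFF vs PBS lost 0, PFF+MLi-2 vs PFF lost 3, and PFF+Rab5 ASO gained 1 both against PFF and against the other 9. With a -log10 q of at least 3, PFF+Rab5 ASO vs PFF lost 1. Leaving out 1 library at a time, PFF vs PBS gained 1 to 3 and lost 1 to 3, PFF+MLi-2 vs PFF gained 0 to 2 and lost 1 to 2, PFF+Rab5 ASO vs PFF gained 4 to 6 and lost 0 to 2, and PFF+Rab5 ASO vs the other 9 gained 2 to 5 and lost 0. Fewer libraries make these rules easier to meet.

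By limma, ranks of the -log10 p-value called 0 members for PFF+Rab5 ASO vs PFF and 1 against the other 9, with 0 regions lying wholly below. A fit over all 12 libraries called 0 in PFF+Rab5 ASO vs PFF, and relative depth as a covariate 0 against the other 9, of the members and of all regions (unadjusted p under 0.05 at 3 members and 7408 of all). The cause was not tested. Leaving out 1 library gave 0 calls in PFF vs PBS and PFF+MLi-2 vs PFF, 0 to 1 in PFF+Rab5 ASO vs PFF, and 0 to 3 against the other 9, with 3 to 4 regions wholly above and 1 to 2 wholly below. The region far upstream of Dlx5 lost its call without PBS replicate 2 or 3, PFF replicate 2 or 3, or any PFF+Rab5 ASO replicate. The region 49538 bp upstream of Dlx5 turned to -0.06 for PFF+Rab5 ASO against PFF without replicate 2 of PFF and reached 0.68 without replicate 3. The log2 fold without ranks shifted the median of all regions by 0.07, -0.11, -0.13 and -0.07 in the 4 comparisons, and the calls over all regions became 826 higher and 6072 lower in PFF+Rab5 ASO vs PFF (1426 and 1346 by ranks) and 1450 and 4373 against the other 9 (2761 and 2889). Its member calls were 1 lower in the first and 1 higher and 1 lower in the second.

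With the replicate number as a block, member calls were 0, 0, 1 and 2 in the 4 comparisons as before, and the Gad2 upstream region had 1.21 with an adjusted p of 0.0162. Deviations of same-numbered libraries correlated at 0.01 to 0.08 over 18 pairs and of different numbers at -0.07 to 0.03 over 36, and 12 of 12 libraries correlated best with their own number, a hint from the data and not the design. Presence counts admit no block.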
